A study of Homo sapiens with 9 samples.

Results

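Peptide transport, editing and trimming for MHC class I were followed through 6 genes, TAP1, TAP2, TAPBP, TAPBPL, ERAP1 and ERAP2. They were picked by symbol from a table of 59609 genes, and all 6 passed the low-count filter that left 16964 genes for testing. RNA was sequenced from SUIT2 cells, an established line from a human pancreatic cancer, in 3 groups of 3 libraries. These were interferon beta (IFNβ, a type I interferon) at 100 U/mL for 24 h, the same dose for 6 h, and control treatment, for which the labels give no duration. Whether libraries of a group came from different cultures is not in the labels, and p-values therefore reflect spread among libraries that may be technical. Total estimated counts per library ran between 25270387 and 40384407 at 24 h, between 16799278 and 37420457 at 6 h and between 15101734 and 19632741 in control.

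Class I molecules display short peptides from inside the cell to CD8+ T cells. Proteasomes cut proteins into peptides in the cytosol, and the ABC transporter made of TAP1 and TAP2 carries them into the endoplasmic reticulum. There TAPBP (tapasin) holds the empty class I molecule next to the transporter and favours tightly bound peptides. TAPBPL (also called TAPBPR) is a tapasin relative that edits peptides away from the transporter, and the aminopeptidases ERAP1 and ERAP2 shorten peptides from their N-terminal ends. Type I interferon acts through a complex that holds STAT2 and IRF9 and binds a DNA element known as the ISRE. Tumours can lose class I display when some of the steps above, such as transport into the endoplasmic reticulum, are low.

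The identity of the cells was checked against marker genes. Of 9 epithelial and ductal markers (keratins, EPCAM, CDH1 and others), 0 were at zero, and their summed level was 5530 to 5650 CPM (counts scaled to the library total) at 24 h, 5590 to 5900 at 6 h and 4980 to 5050 in control. The leukocyte genes PTPRC, CD3E, NKG7 and MS4A1 were at 0 counts in all 9 libraries. The 8 leukocyte markers summed to 0.977 to 1.15 CPM at 24 h, 0.454 to 0.554 at 6 h and 0.391 to 0.54 in control. Markers of fibroblast, endothelial and acinar cells summed to 2.81 to 3.22 CPM at 24 h, 2.73 to 2.86 at 6 h and 2.02 to 2.87 in control. What other cell types add to the values below was not tested.

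All 6 genes had an entry in the RefSeq promoter table (GRCh38.p14), with 10 windows that run 250 bases before to 50 after an annotated start. The core letters of the ISRE, GAAA, any 2 bases and GAAA again (TTTC, any 2 bases and TTTC on the other strand), were present for 5 of the 6 genes, all but TAPBPL. Among all genes of that table, 4.38% had a window with this core. The stretches below are shown because they let the matches be compared. Each is read 5′ to 3′ on the gene's own strand, with the core in capitals, and in TAP1 and TAPBP 2 cores overlap.
TAP1, chr6:32853816-32853845, minus strand: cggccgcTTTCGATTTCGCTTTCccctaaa
TAP2, chr6:32838778-32838807, minus strand: ctggggaagcGAAAGCGAAAgctgcccgag
TAPBP, chr6:33314076-33314105, minus strand: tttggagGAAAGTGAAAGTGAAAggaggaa
ERAP1, chr5:96807924-96807953, minus strand: cgggctccacTTTCACTTTCggtcctgggg
ERAP2, chr5:96876460-96876489, plus strand: tcttagaacaGAAAGTGAAAgcaaaagtaa
TAPBPL, closest stretch, 1 letter off the core, chr12:6452000-6452029, plus strand: ggtgagaaagGAAACAGCAAgcagggctct

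Distances are from the annotated start of the window that holds the core. The first core began 134 bases before that start in TAP1, 58 in TAP2, 20 in TAPBP and 30 in ERAP2. In ERAP1 the core began at base 3 of the transcript. TAP1, ERAP1 and ERAP2 each have another window, which holds no core. For ERAP2 the window without a core has its start at 96875984, next to the deposited start of the gene at 96875986. GENCODE 29 places the TAP1, TAPBP, ERAP1 and ERAP2 cores inside an untranslated exon of longer transcripts of the same gene, and the TAP2 core in one of AL669918.1, a transcript model that spans TAP2. The GAS letters, TTC, any 3 bases and GAA, another element of interferon-responsive genes, were found in 1 window, an alternative TAP1 promoter, against 9.38% of all genes. Letters of a kB element, GGG, any 5 bases and CC on either strand, were in windows of TAP1, TAP2, TAPBP, TAPBPL and ERAP1, but 61.7% of all genes have such a match. A match describes letters in these windows and is not a measured binding site.

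**Figure D1:**
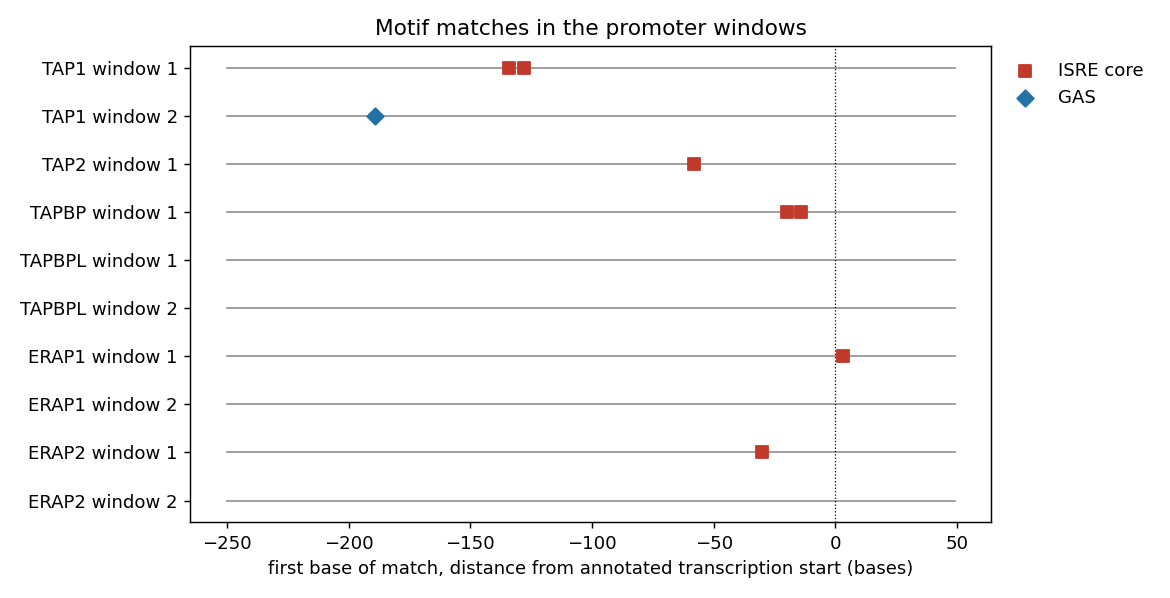
Matches to the ISRE core (squares) and the GAS letters (diamond) in the 10 promoter windows of the 6 genes, by distance of the first matching base from the annotated start in bases (dotted line). Every gene but TAPBPL has a window with an ISRE core, and both TAP1 and TAPBP have an overlapping pair.

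TAP1, a chain of the transporter, had the highest rise of the 6 genes at both times. TAP1 (chromosome 6, 32845209 to 32853979, minus strand) stood at 176, 174 and 179.8 CPM at 24 h, at 711, 713 and 671 CPM at 6 h and at 42.2, 41.7 and 44.6 CPM in control. The 3 groups did not overlap, with 6 h far above the others and 24 h still several times above control. In the quasi-likelihood test of edgeR (p-values adjusted by Benjamini-Hochberg over all tested genes) TAP1 rose 16.3-fold at 6 h, or 4.03 on the log2 scale (SE 0.0385, adjusted p = 4.74e-19), and at 24 h it was 4.13-fold above control (2.05, SE 0.038, adjusted p = 1.05e-15). Ordered by log2 fold change, TAP1 was number 108 of 16964 genes at 6 h and number 246 at 24 h. In bulk RNA a change in the share of cells that respond cannot be told apart from a change of RNA per cell.

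TAP2 (chromosome 6, 32821833 to 32838771, minus strand), the other chain of the transporter, stood at 192, 188 and 194 CPM at 24 h, at 425, 409 and 413 CPM at 6 h and at 101, 105 and 106 CPM in control. Its groups again did not overlap. TAP2 rose 4.005-fold at 6 h (log2 2.00, SE 0.0316, edgeR adjusted p = 5.28e-17) and 1.84-fold at 24 h (0.88, SE 0.0314, adjusted p = 3.38e-12). At 24 h it had the smallest rise of the 6 genes.

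TAPBP (chromosome 6, 33299694 to 33314388, minus strand), the tapasin gene, stood at 259, 257 and 254 CPM at 24 h, at 311, 315 and 313 CPM at 6 h and at 125, 123 and 128 CPM in control. All treated libraries were above all controls and 6 h was slightly above 24 h. The rise was 2.49-fold at 6 h (log2 1.32, SE 0.0286, edgeR adjusted p = 3.84e-15) and 2.04-fold at 24 h (1.03, SE 0.0284, adjusted p = 1.29e-13). TAPBPL (chromosome 12, 6451690 to 6466518, plus strand), the tapasin relative, stood at 32.3, 32.5 and 35.2 CPM at 24 h, at 33.2, 34.2 and 32.2 CPM at 6 h and at 13.6, 15.1 and 14.02 CPM in control. Both times lay above control and overlapped each other. TAPBPL rose 2.32-fold at 6 h (log2 1.22, SE 0.0619, edgeR adjusted p = 2.99e-10) and 2.34-fold at 24 h (1.22, SE 0.0596, adjusted p = 1.62e-10).

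Both trimming enzymes rose, and the rise of ERAP2 was the highest after TAP1 among the 6 genes at both times. At 6 h it was close to that of TAP2 (log2 2.05, SE 0.0376, and 2.00, SE 0.0316), and their order was not tested. ERAP1 (chromosome 5, 96760810 to 96808101, minus strand) stood at 56.2, 56.8 and 56.4 CPM at 24 h, at 82.4, 77.3 and 81.4 CPM at 6 h and at 24.8, 25.1 and 26.9 CPM in control. ERAP2 (chromosome 5, 96875986 to 96919704, plus strand), its neighbour with a different choice of N-terminal residues, stood at 188, 189 and 191 CPM at 24 h, at 281, 279 and 302 CPM at 6 h and at 70.6, 68.0 and 70.1 CPM in control. For both genes the 3 groups stood apart, with 6 h highest. ERAP1 rose 3.15-fold at 6 h (log2 1.65, SE 0.0442, edgeR adjusted p = 6.36e-14) and 2.21-fold at 24 h (1.14, SE 0.0443, adjusted p = 9.58e-12). ERAP2 rose 4.14-fold at 6 h (log2 2.05, SE 0.0376, edgeR adjusted p = 3.87e-16) and 2.73-fold at 24 h (1.45, SE 0.0374, adjusted p = 6.05e-14).

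**Figure D2:**
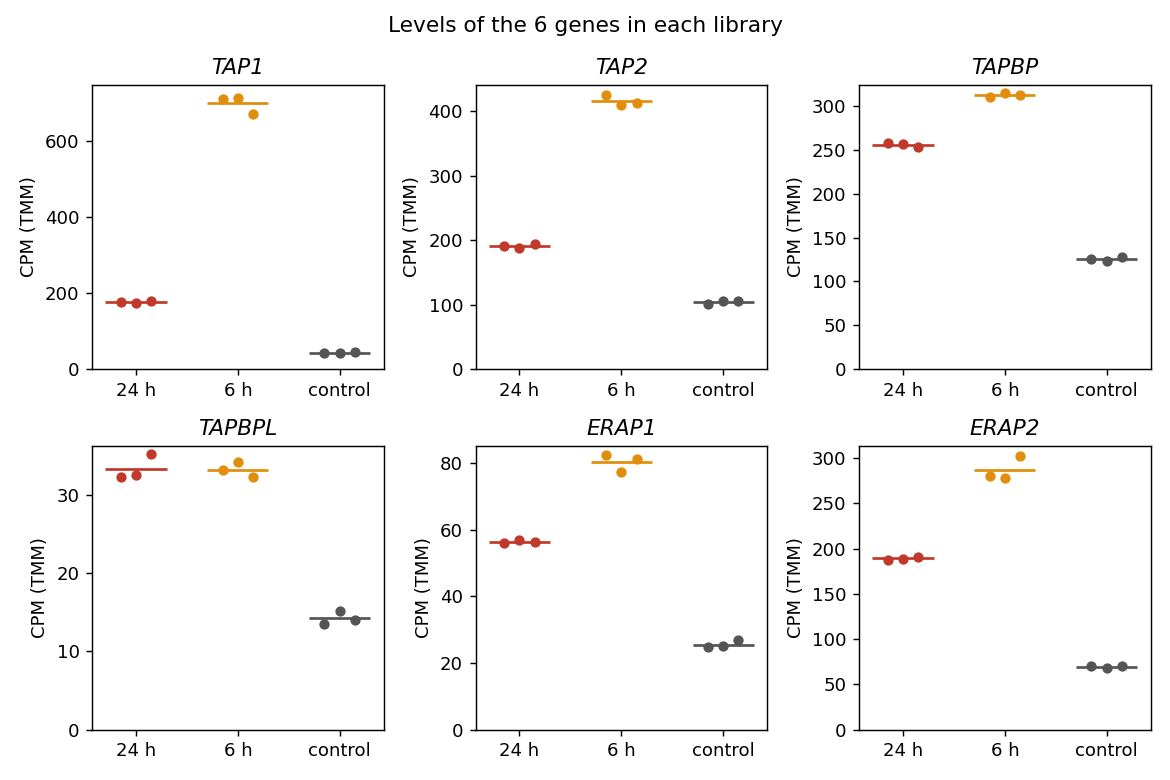
CPM with TMM factors of each gene in the 9 libraries at 24 h, 6 h and in control (points are libraries, lines are group means, and each axis starts at 0). All treated libraries lie above all controls for each gene, and TAPBPL is the gene whose 24 h and 6 h libraries overlap.

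All 6 genes were called higher at 6 h, where 17.5% of all tested genes were higher and 15.4% lower, and all 6 at 24 h, where 24.7% were higher and 25.3% lower. For each gene every treated library exceeded every control library. How many of all tested genes separate in this way was not counted, here or between the times. The median log2 fold change of the 6 was 1.83 at 6 h and 1.18 at 24 h, against medians over all genes of -0.005 and 0.005. Both comparisons use the same control libraries. Scaling matters for how the calls over all genes divide. The share of calls that were higher at 6 h was 53.2%. It was 21.2% when counts were scaled by library size alone and 88.4% in the authors' deposited normalised table. At 24 h the share was 49.5%, and with these scalings 64.1% and 96.4%.

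Between the times the genes parted. No control is labelled with either time, so time in culture and time with interferon beta cannot be told apart here. By edgeR, 5 of the 6 were called lower at 24 h than at 6 h, where 30.6% of all tested genes were, and 0 were called higher, where 26.6% were. By edgeR TAP1 was lower by the most, with a log2 fold change of -1.98 (SE 0.0325, adjusted p = 3.73e-16), and TAP2 followed at -1.12 (SE 0.0293, adjusted p = 5.92e-14). The trimming enzymes were closer to their 6 h level, with ERAP2 at -0.60 (SE 0.0335, adjusted p = 5.3e-10) and ERAP1 at -0.51 (SE 0.0365, adjusted p = 1.06e-08). TAPBP stood at -0.29 (SE 0.0268, adjusted p = 2.3e-07). For these 5 genes all 24 h libraries lay below all 6 h libraries. TAPBPL stood at 0.009 (SE 0.0494, adjusted p = 0.894) with overlapping groups, and with library size only it was called higher at 24 h, at 0.23 (SE 0.0504, adjusted p = 0.00107). That scaling moved the median of all genes to 0.198, against -0.019 with TMM, and relative to the median TAPBPL stood at 0.03 under both. In the authors' deposited normalised table the calls of TAPBP (-0.01, adjusted p = 0.96 by limma), ERAP1 (-0.23, adjusted p = 0.278) and ERAP2 (-0.33, adjusted p = 0.109) were lost. There the median of all genes was 0.215, and relative to it the 3 genes stood at -0.23, -0.45 and -0.54, against -0.27, -0.49 and -0.58 with TMM. The share of higher calls between the times was 46.6% with TMM, 76.9% by library size alone and 83.3% in the deposited table.

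**Figure D3:**
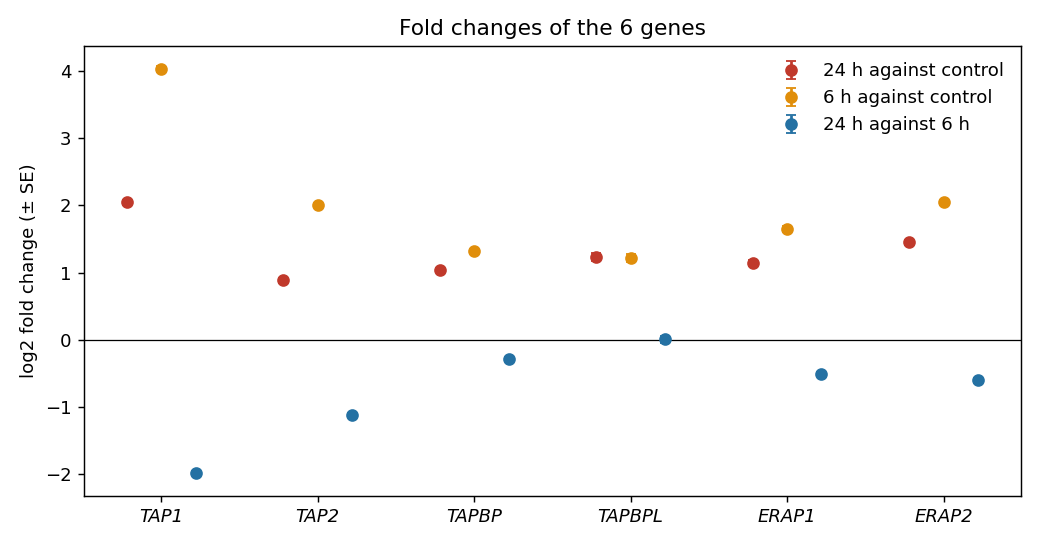
Log2 fold changes of the 6 genes at each time against control and between the times, with SE bars that are mostly smaller than the points. TAP1 has the highest rise at 6 h (4.03) and the largest difference between the times (-1.98), and TAPBPL lies at 0.009 between the times.

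As a description, the log2 rise at 24 h was 44.1% of the 6 h rise for TAP2, 50.8% for TAP1, 69.2% for ERAP1, 70.6% for ERAP2, 78.3% for TAPBP and 101% for TAPBPL. The median over the 636 genes that were called higher at 6 h by a log2 fold change of 1 or more was 51.7%. Of those 636 genes, 493 were called lower at 24 h than at 6 h and 40 were called higher. The transporter chains thus lay close to that median, and the editing and trimming genes above it.

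The balance within each pair was read as a ratio of estimated counts in the same library, which does not depend on scaling between libraries. The TAP1 to TAP2 ratio was 0.919, 0.925 and 0.929 at 24 h, 1.67, 1.74 and 1.63 at 6 h and 0.42, 0.398 and 0.421 in control. The 3 groups stood apart, so in these libraries the estimated counts of TAP1 and TAP2 did not change in step. On the log2 scale the ratio was higher by 2.02 at 6 h and by 1.16 at 24 h than in control, and at 24 h it stood -0.86 from 6 h. With 3 libraries against 3, a two-sided exact permutation test cannot go below p = 0.1, the value of each of these differences (0.109 adjusted over 12 comparisons of ratios). The ERAP1 to ERAP2 ratio was 0.299, 0.3 and 0.295 at 24 h, 0.293, 0.277 and 0.269 at 6 h and 0.351, 0.369 and 0.383 in control. It was below control in all treated libraries, with a log2 difference of -0.30 at 24 h and -0.39 at 6 h (exact permutation p = 0.1 each).

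The TAPBP to TAPBPL ratio was 8.01, 7.89 and 7.22 at 24 h, 9.37, 9.21 and 9.69 at 6 h and 9.24, 8.15 and 9.13 in control. At 6 h it overlapped control, with a log2 difference of 0.09 (exact permutation p = 0.2, adjusted 0.2). At 24 h it was below both, with differences of -0.29 from 6 h and -0.20 from control (exact permutation p = 0.1 each). PSMB9, a catalytic subunit of the immunoproteasome, starts next to TAP1 on the opposite strand. The TAP1 to PSMB9 ratio was 2.87, 2.91 and 2.8 at 24 h, 5.87, 5.69 and 5.51 at 6 h and 5.29, 4.93 and 4.82 in control. All 24 h libraries had the lowest ratios, with log2 differences of -0.99 from 6 h and -0.81 from control, and 6 h was above control by 0.18 (exact permutation p = 0.1 each).

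**Figure D4:**
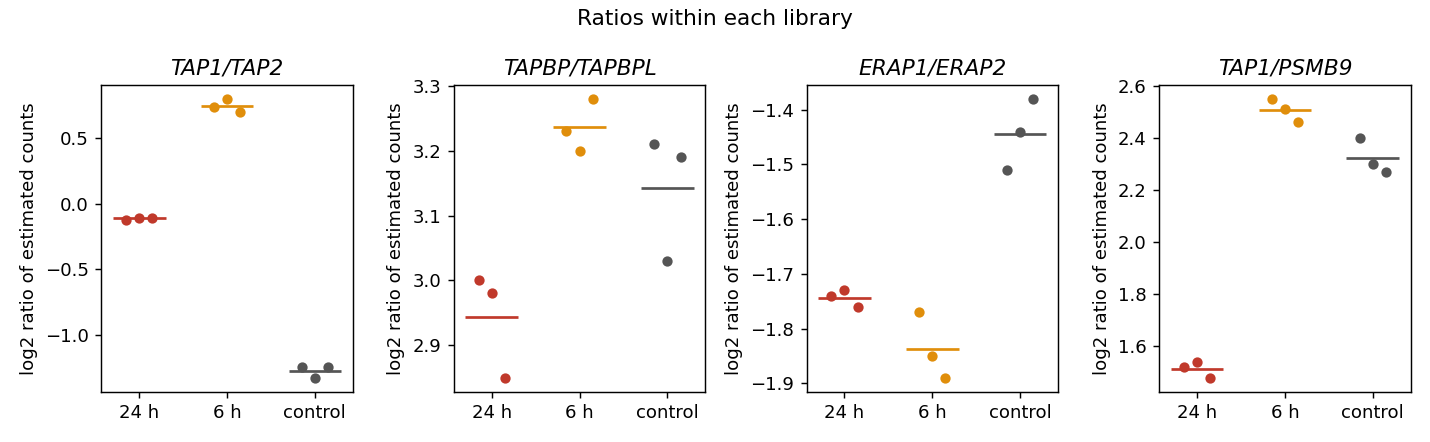
Log2 ratio of estimated counts of 2 genes in the same library, at 24 h, 6 h and in control (points are libraries, lines are group means, and the vertical ranges differ and do not start at 0). The TAP1 to TAP2 ratio changes most, with a mean of -0.11 at 24 h, 0.75 at 6 h and -1.28 in control.

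Levels of different genes were compared per kilobase of exon, over the union of exons in GENCODE 29. At 24 h TAPBP was highest at 50.7 ± 0.46 CPM per kb (SD, n = 3 here and below), ahead of TAP1 at 36.8 ± 0.59, TAP2 at 29.9 ± 0.40, ERAP2 at 25.5 ± 0.22, TAPBPL at 10.5 ± 0.51 and ERAP1 at 7.11 ± 0.041. At 6 h TAP1 was first at 145 ± 4.9 CPM per kb, followed by TAP2 at 65.0 ± 1.3, TAPBP at 61.8 ± 0.43 and ERAP2 at 38.7 ± 1.7. TAPBPL at 10.4 ± 0.31 and ERAP1 at 10.1 ± 0.34 overlapped there. In control TAPBP was again first at 24.8 ± 0.48 CPM per kb, then TAP2 at 16.2 ± 0.43. ERAP2 at 9.37 ± 0.18 and TAP1 at 8.92 ± 0.32 overlapped, and TAPBPL at 4.46 ± 0.25 and ERAP1 at 3.22 ± 0.14 were lowest. With the length of the longest coding transcript instead, chosen after seeing the data, TAPBP came ahead of TAP2 at 6 h (83.2 and 73.1 CPM per kb) and TAP1 ahead of ERAP2 in control (14.5 and 12.2). TAP1 stayed first at 6 h and TAPBP first at 24 h and in control.

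Genes that overlap a member could share its reads, since no source used here states whether counting used strand. TAP1 lies wholly inside the interval given for PSMB9 and overlaps PSMB8-AS1. Its estimated counts were within 0.05 of a whole number in 0 of 9 libraries. The number was 2 of 9 for TAP2, 6 of 9 for TAPBP and 9 of 9 for TAPBPL, ERAP1 and ERAP2. PSMB9 itself rose, with a log2 fold change of 3.84 (SE 0.0546) at 6 h and 2.86 (SE 0.0571) at 24 h, at 61.8 CPM at 24 h, 123 CPM at 6 h and 8.56 CPM in control. TAP2 lies inside AL669918.1. TAP2 had at least 1623 estimated counts in each library, and AL669918.1 had at most 105 at 24 h, 103 at 6 h and 41 in control. ERAP1 overlaps CAST, the gene of the calpain inhibitor, on the opposite strand. ERAP1 also overlaps AC008906.1 and AC008906.2, which were too low to be tested. CAST averaged 212 CPM at 24 h, 360.0 CPM at 6 h and 249.3 CPM in control. Its log2 fold change was 0.53 (SE 0.0355) at 6 h and -0.24 (SE 0.0355) at 24 h, where ERAP1 was higher. In the deposited table the 24 h value of CAST was 0.20 and not called. TAPBPL overlaps VAMP1, at 3.77 CPM at 24 h, 3.11 CPM at 6 h and 2.93 CPM in control. TAPBPL also overlaps CD27, too low to be tested, and the interval given for Metazoa_SRP. Metazoa_SRP averaged 1.035 CPM at 24 h, 0.787 CPM at 6 h and 0.834 CPM in control. CD27-AS1 lies on the opposite strand without overlap, and its start at 6451568 faces that of TAPBPL. CD27-AS1 was not called at 6 h (0.13, SE 0.125) and was called higher at 24 h (1.17, SE 0.111), where it averaged 8.63 CPM. ERAP2 lies wholly inside the interval of AC009126.1 on the opposite strand. ERAP2 had at least 1075 estimated counts in each library, and AC009126.1 had at most 26 at 24 h, 18 at 6 h and 9 in control. TAPBP overlaps no listed gene. Its neighbours RGL2 (log2 fold change -0.11, SE 0.0504), DAXX (0.04, SE 0.0365) and PFDN6 (0.03, SE 0.0461) did not pass at 6 h. ZBTB22, the neighbour nearest to TAPBP, was called lower at 6 h with -0.19 (SE 0.07, edgeR adjusted p = 0.0495). At 24 h PFDN6 was called higher (0.25, SE 0.0435) and DAXX lower (-0.10, SE 0.0356). RGL2 (0.01, SE 0.0478) and ZBTB22 (0.05, SE 0.0655) did not pass at that time. What read sharing adds to the values of TAP1, TAP2, TAPBPL, ERAP1 and ERAP2 was not tested.

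The rest of the class I pathway did not move as 1 block. Over all tested genes 17.5% were called higher and 15.4% lower at 6 h, and 24.7% and 25.3% at 24 h. Between the times 26.6% were higher and 30.6% lower. Counts for the groups below are to be read beside these shares. Of 7 class I chain genes, 6 were called higher at 6 h and 7 at 24 h, with HLA-F at 3.96 (SE 0.0566), HLA-B at 3.81 (SE 0.0388), HLA-E at 2.59 (SE 0.0343) and HLA-C at 2.49 (SE 0.0377) at 6 h. Reads of the HLA genes can be divided among near-identical copies, so their single values are uncertain. Between the times 5 of these 7 were called higher at 24 h and 2 lower. The median log2 fold change between the times was -0.56 for the 6 transport, editing and trimming genes, 0.22 for the 7 chains and -0.019 for all genes. These counts for the chains, 5 and 2, were the same with median-of-ratios scaling, library size alone and the deposited table. Library size alone and the deposited table moved the median of all genes up, to 0.198 and 0.215. These 2 scalings therefore could not put the higher calls in doubt. HLA-B stood at 0.22 (SE 0.0311) and B2M, the light chain, at 0.29 (SE 0.0227), whereas HLA-E fell with -0.97 (SE 0.0307).

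The 5 immunoproteasome genes were all called higher at both times. PSMB9 had 3.84 (SE 0.0546) at 6 h, PSMB8, another catalytic subunit, 2.66 (SE 0.0417), PSMB10, the third, 1.61 (SE 0.0752), and PSME2, a chain of the PA28 activator, 1.41 (SE 0.0355). Between the times the 3 catalytic genes were lower at 24 h, with -0.99 for PSMB9 (SE 0.0369), -0.58 for PSMB8 (SE 0.0343) and -0.42 for PSMB10 (SE 0.0613), while PSME1 and PSME2 were higher by 0.24 (SE 0.032) and 0.18 (SE 0.0302). In the deposited table the calls of PSMB8 (-0.31, adjusted p = 0.128 by limma) and PSMB10 (-0.15, adjusted p = 0.518) were lost. Of the 3 constitutive catalytic subunits, 1 was higher and 0 lower at 6 h (PSMB7, 0.15, SE 0.0366), and 0 were higher and 2 lower at 24 h. With library size alone 0 were higher and 1 lower at 6 h. PSMB7 at 24 h was -0.24 (SE 0.0363) with TMM and 0.20, not called, in the deposited table. Of the general chaperones of loading all 7 were called higher at 6 h with log2 fold changes of 0.08 to 0.41, against 2 with library size alone and 1 in the deposited table. At 24 h 3 were higher and 2 lower, with PDIA3, the thiol oxidoreductase bound to tapasin, at 0.52 (SE 0.0291) and calreticulin (CALR) at 0.51 (SE 0.0254). UGGT1, which checks the folding of glycoproteins, was lower with -0.39 (SE 0.0375). With library size alone 5 of the 7 were higher and 1 lower at 24 h, and 5 were higher and 0 lower in the deposited table.

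Among 8 other peptidases linked to class I peptides, 5 were higher and 1 lower at 6 h, and 2 were higher and 2 lower at 24 h. The 24 h counts were near the shares over all tested genes, 24.7% higher and 25.3% lower. The cytosolic leucine aminopeptidase LAP3 stood at 2.61 (SE 0.0341) at 6 h and 2.15 (SE 0.0338) at 24 h. LNPEP, an ERAP relative that trims peptides in endosomes and lies in the same cluster on chromosome 5, stood at 0.93 (SE 0.0547) at 6 h and 0.42 (SE 0.0545) at 24 h. Between the times 7 of these 8 were lower at 24 h with TMM, 4 with library size alone and 0 in the deposited table. Other transporters of the ABCB subfamily, to which the TAP chains belong, numbered 0 higher and 1 lower of 7 tested at 6 h, with a range of -0.26 to 0.42, and 5 higher and 1 lower at 24 h. With library size alone 3 of them were lower at 6 h. Of 8 genes for the ER channel and exit from the ER, 2 were higher and 0 lower at 6 h, and 1 was higher and 3 lower at 24 h. With library size alone 0 of these were higher and 3 lower at 6 h, and 0 were called in either direction at that time in the deposited table. In the deposited table, at 24 h, 4 of these 8 were higher and 0 lower, and for the 8 peptidases 6 were higher and 0 lower, so the calls of both groups depended on scaling.

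Of 9 regulators of class I genes, 7 were called higher and 0 lower at 6 h, and 9 were higher at 24 h. NLRC5, the class I transactivator, stood at 5.47 (SE 0.0614) at 6 h, STAT2 at 3.96 (SE 0.0603) and IRF9 at 2.99 (SE 0.0655). Between the times 7 were lower at 24 h, among them NLRC5 at -2.37 (SE 0.0394), IRF1 at -2.21 (SE 0.039) and STAT2 at -1.89 (SE 0.0478), and 2 were higher, RFXAP and RFXANK, subunits of the factor that binds class II and class I promoters. The counts against control were the same with library size alone and in the deposited table, where 5 were lower between the times.

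**Figure D5:**
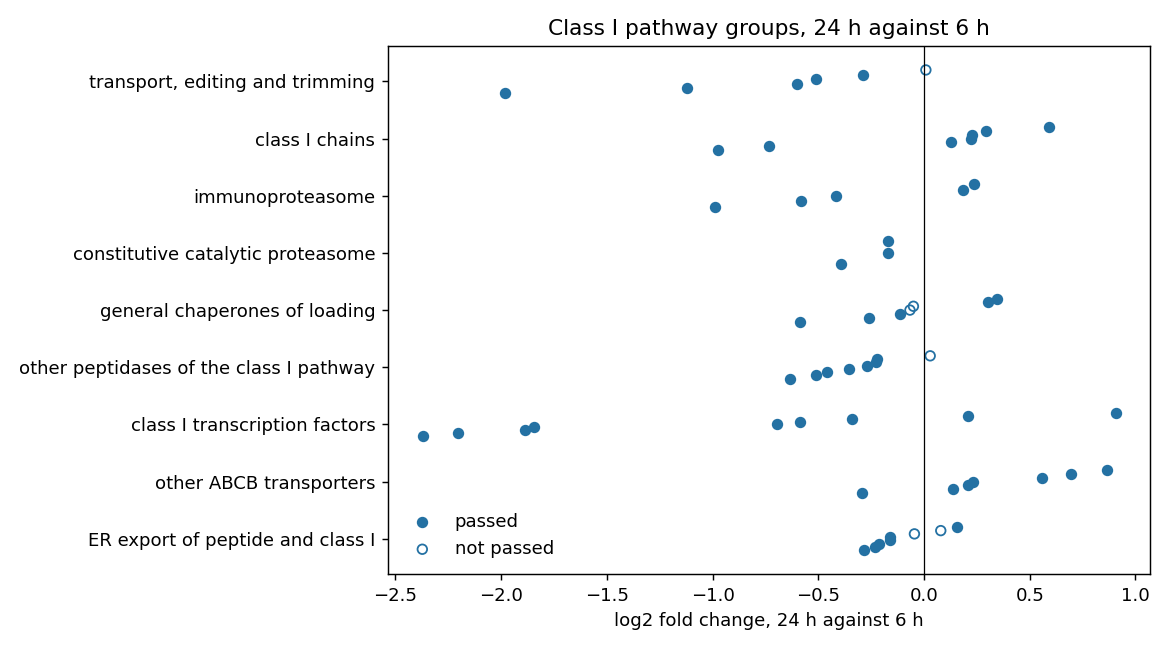
Log2 fold changes at 24 h against 6 h for the genes of each class I pathway group (filled points passed at an adjusted p under 0.05, open points did not, and the vertical offset within a row is for display). Of the 6 transport, editing and trimming genes 5 lie below 0, whereas 5 of the 7 class I chains lie above it.

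Genes with the most similar profile were found over the 9 libraries among 11482 other genes with at least 5 CPM on average, as the root mean square difference of log2 CPM after the control mean was subtracted. The profile closest to TAP1 was that of STAT2, at 0.0956, then HES4 and RNF213 at 0.122 and 0.14. SLFN12, NCOA7 and CNP were closest to TAP2, at 0.0888 to 0.0989, and PLAC8, MOV10 and CHMP5 to TAPBP, at 0.0848 to 0.0961. SHISA5, at 0.0711, and PLAC8, at 0.0855, were closest to TAPBPL, followed by RMI2. The immunoproteasome gene PSMB10 was closest to ERAP1, at 0.102, and the RNA-editing gene ADAR to ERAP2, at 0.107. Among the 6 genes themselves the closest pair was TAPBP and TAPBPL, at 0.14, and TAP1 was far from each of the others, at 1.2 or more.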

How the data were processed

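RNA of 9 SUIT2 libraries was sequenced on a HiSeq 3000, per the labels' protocols. The submitters' processing notes name STAR 2.7.8a, Partek and build hg38. Annotation release, counting method and strand setting are not stated in any source used here. The authors deposited estimated counts per gene, which were rounded here to whole numbers since whole counts had been assumed. They also deposited a TMM-normalised signal table, used only as an alternative.

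Genes were tested with edgeR 4.0.16 (R 4.3.3, TMM factors, 1 model over 9 libraries, 6 residual degrees of freedom, minimum count of 10, minimum total of 15, adjusted p under 0.05). SEs are absolute log2 fold changes divided by the square root of the F statistic. Libraries of a group were not duplicates of one another (mean chi-square per gene 1.59 to 5.58). The members, the 8 pathway and 3 marker lists and the tests were chosen with earlier results of these data known. Named genes are all members, and others drawn from genes within 5000 bases, 3 nearest profiles per member and up to 4 called genes per list by 6 h change. B2M, PSME1, IRF1, RFXAP and RFXANK were named after their values were seen. Some genes of the lists are counted but not reported singly here. Member coordinates are those deposited. The test was checked on simulated data. Alternatives used DESeq2 1.42.0 and limma 3.58.1, and scalings of the pathway lists were compared after seeing the data.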

Additional observations from a re-analysis of the deposited data

Results flagged for a closer look

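The difference from control was not the same at 24 h and at 6 h for 5 of the 6 genes, by the edgeR test of 24 h against 6 h itself. The log2 difference was -1.98 for TAP1, -1.12 for TAP2, -0.60 for ERAP2, -0.51 for ERAP1 and -0.29 for TAPBP. Each had all 3 libraries at 24 h below all 3 at 6 h. In that comparison 30.6% of all tested genes were called lower, and separation of the libraries was not counted over all genes. No control is labelled with either time, so time in culture and time with interferon beta cannot be told apart. The calls of TAPBP, ERAP1 and ERAP2 were lost in the deposited normalised table.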

How the results depend on the processing

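Across 21 alternative settings, the number of the 6 genes called higher stayed at 6 at 6 h and at 24 h, and of 357 fold changes, leaving aside TAPBPL between the times, 351 kept their direction and call and 6 lost the call. Those 6 were the 24 h against 6 h values of TAPBP, ERAP1 and ERAP2 in the deposited normalised table, at -0.0139, -0.233 and -0.325 with a pseudocount of 1 and -0.0138, -0.236 and -0.326 with 0.1, so that 2 genes were called lower with either pseudocount, against 5. For TAPBPL the value between the times was 0.226 and called with library size only, which made 1 gene higher. It turned to -0.0545 with libraries thinned to the smallest total, an alternative chosen after seeing the data, and ran between -0.0355 and 0.0326 as single libraries were left out, below 0 without the third 6 h library or the third 24 h library, never called. All 120 alternative values of the ratios, from single libraries left out and from the deposited table, kept their sign. Scaling between libraries does not enter a ratio, and leaving out a library cannot turn the sign where the groups stand apart. The sign was therefore open only for the TAPBP to TAPBPL ratio at 6 h against control, whose groups overlapped. Whether equal replicate numbers mark paired libraries is not in the labels, and the checks here cannot exclude it. Correlations of same-numbered deviations were -0.0588 to 0.0214, and with the replicate block TAP1 stood at 4.03 at 6 h, with 6 genes higher at 6 h, 6 at 24 h and 5 lower between the times. Of 18 comparisons of a library with another group, 8 correlated best with its own number. The TAPBP to TAPBPL ratio at 6 h against control, 0.0941, ran between 0.0368 (without the second control library) and 0.127 as single libraries were left out. TAPBPL had the fewest estimated counts of the 6 genes, 215 to 1388 a library, and 3 libraries per group keep exact tests of ratios at p = 0.1 or above.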
